A study of Homo sapiens with 12 samples.

Results

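The genes described here encode the subunits of the mitochondrial respiratory chain and ATP synthase, and they sit on 2 genomes. They were taken by name from the 15090 rows of the deposited table: nuclear symbols of the NDUF, UQCR, COX4 to COX8, SDH and ATP5 series, and the 13 genes of mitochondrial DNA. The names matched 94 rows. Of these, 79 are nuclear protein genes, 13 are mitochondrially encoded, and 2 are antisense RNAs (NDUFV2-AS1 and NDUFB2-AS1) that share a subunit's name and were kept out of every count. The rule uses names alone. By complex, the nuclear genes divide into 34 of complex I, 4 of complex II, 9 of complex III, 14 of complex IV and 18 of complex V.

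The libraries were made from total RNA of MIA PaCa-2, an established human pancreatic cancer cell line, labelled wild type. The study crossed 2 levels of L-glutamine (2 and 40 mM, added to glutamine-free RPMI 1640) with 2 levels of gemcitabine, a nucleoside chemotherapy drug (0 and 0.5 µM), for 48 h. Each of the 4 groups holds 3 libraries, described as biological triplicates. The series title names chemosensitivity and amino acid transport under high-dose glutamine as its subject, so 40 was set beside 2 mM glutamine, once without and once with gemcitabine, and treated beside untreated cells at either dose of glutamine.

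Complex I passes electrons from NADH to ubiquinone, complex II passes them from succinate, complex III hands them to cytochrome c, and complex IV to oxygen. Complexes I, III and IV pump protons, and complex V, the ATP synthase, uses the gradient to make ATP. Mitochondrial DNA supplies membrane core subunits of complexes I, III, IV and V, copied as long RNAs that are cut at tRNAs, and complex II is wholly nuclear. Glutamine feeds the citric acid cycle, which provides the electrons.

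Values are RPM, the reads of a gene scaled by library, worked back from the deposited log2(RPM + 1) values, and the libraries hold 21723094 to 32811746 reads each. The RPM of all genes add up to between 971668 and 1021041 in a library, so the scaling is not by depth alone. The 13 mitochondrial genes took 3.82 to 4.62% of the reads of a library and the 79 nuclear genes 0.853 to 0.934%, and the groups of each comparison overlapped in both shares. Averaged on the log2 scale, the mitochondrial genes stood above the tested nuclear genes by 3.98 to 4.27 in the 12 libraries, and here too the compared groups overlapped. A gene was tested where at least 3 libraries reached 1 RPM, which all 13 mitochondrial and 76 nuclear genes did. The untested nuclear genes were the tissue isoforms COX6B2 and COX7A1, at mean levels of 0.695 and 0.201 RPM, and ATP5F1E, the epsilon subunit, at 0.716 RPM. Of the epithelial and mesenchymal markers set for the line, KRT8, KRT18, KRT19 and VIM were in the table. KRT7, EPCAM and CDH1 had no row. KRT8 stood at 1355 to 2357 RPM and VIM at 2944 to 3488 RPM. Of the markers set for other cells, only CD14, COL1A1 and COL3A1 were in the table, at mean levels of 0.378, 0.991 and 13.2 RPM. Some of these markers moved with the conditions. KRT8, KRT18 and KRT19 fell with glutamine, by 0.30 to 0.42 without and 0.45 to 0.59 with the drug on the log2 scale. KRT8 and KRT18 rose with the drug, by 0.46 and 0.44 at 2 mM and 0.32 and 0.27 at 40 mM. KRT19 and VIM went the other way with the drug. Of these, 1 was called lower at 2 mM and 2 at 40 mM, with lowest differences of -0.103 and -0.192. COL1A1 rose with the drug at 2 mM by 0.44 ± 0.174 (SE, adjusted p = 0.0485, limma), at levels of at most 1.61 RPM. Their part in the results below was not tested. In bulk RNA, a change in the number of mitochondria or in RNA per cell cannot be told apart from a change in each transcript's share.

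Mitochondrial genes overlap on the genome, and this bears on how their reads can be assigned. ATP8 shares its last 46 bases, 22.2% of its length, with the start of ATP6, and ND4L shares its last 7 with ND4. Any read that covers some of these bases overlaps both gene models. Both stretches are shown from the GENCODE v29 transcripts, in the RNA's direction, with the shared bases in capitals.
ATP8, whole: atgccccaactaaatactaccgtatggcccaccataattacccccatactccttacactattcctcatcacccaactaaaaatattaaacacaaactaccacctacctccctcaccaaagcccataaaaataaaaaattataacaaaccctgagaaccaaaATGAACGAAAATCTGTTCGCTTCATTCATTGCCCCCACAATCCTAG
ND4L, last 50 bases: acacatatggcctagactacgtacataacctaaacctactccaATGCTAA
ND6 is the 1 gene of the 13 on the other strand, and the sources used here do not state the strand setting of the counting.

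Per kilobase, the subunits of cytochrome c oxidase led. COX1 averaged 8440 ± 542 and COX2 8409 ± 479 RPM per kilobase (SD, n = 12 libraries), and COX1 was above COX2 in 6 of 12 libraries, so this pair has no order. COX3 followed at 5436 ± 447 and ND4 at 4826 ± 453. ND1 reached 3156 ± 298 and lay above ATP6, at 2873 ± 194, in 11 of 12 libraries. ND2 stood at 2410 ± 196 and CYTB, the mitochondrial subunit of complex III, at 1388 ± 141. ND5 (1164 ± 82.5), ND3 (1153 ± 147) and ND4L (1085 ± 220) overlapped, each above the next in 7, 7 and 9 of 12 libraries. ND6 was at 934 ± 61.9, and ATP8 as counted was far below the rest at 98.8 ± 20.9, with only 75.5 to 148 RPM per kilobase in single libraries. The part of the overlaps with ATP6 and ND4 in the values of ATP8 and ND4L was not tested.

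**Figure D1:**
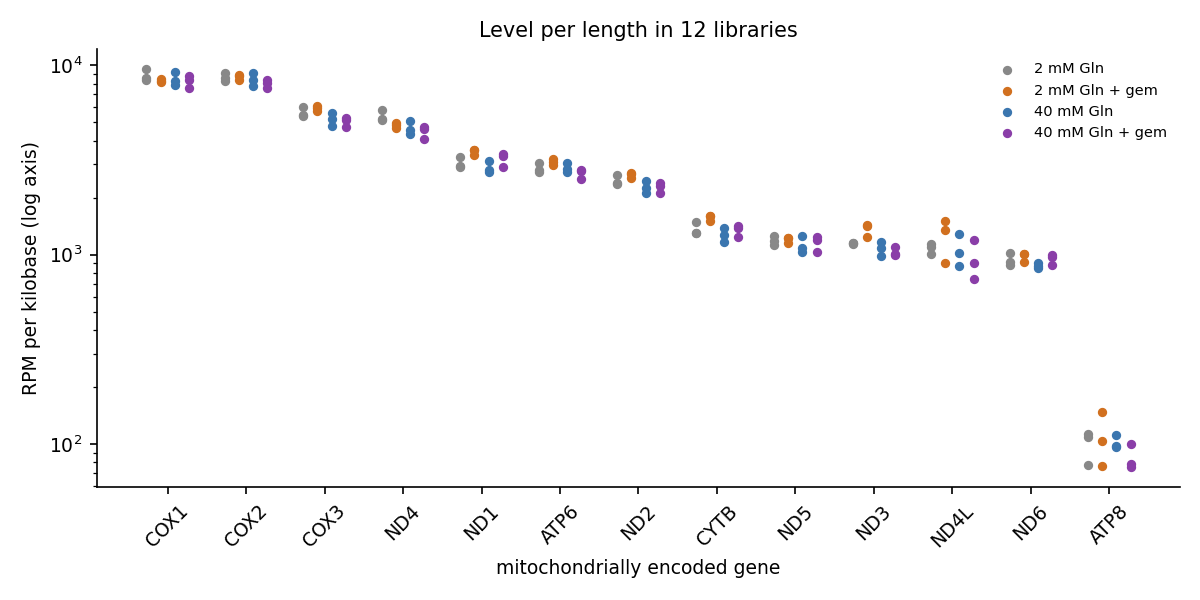
Level of each mitochondrially encoded gene in RPM per kilobase of transcript (log axis), 1 point per library, coloured by group. COX1 and COX2 lie together near the top, and ATP8 is at most 148 in any library while ND6, the next lowest gene, averages 934.

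With gemcitabine at 2 mM glutamine, 4 mitochondrial genes rose and 1 fell. ND1, ND3, CYTB and ATP6 were higher by 0.21, 0.24, 0.21 and 0.11 on the log2 scale, while ND4, of complex I like ND1 and ND3, fell by 0.16 ± 0.047 (SE). Of all 12789 genes tested, 34.6% passed the same threshold, 17.5% higher and 17.1% lower. The threshold throughout is an adjusted p under 0.05 from limma, with the Benjamini-Hochberg adjustment over all genes tested. At 40 mM glutamine the drug raised ND1 and ND6 and lowered none, against 30.3% of all genes called, 14.1% higher and 16.2% lower. The median over the 13 genes was 0.094 at 2 mM and -0.04 at 40 mM, against -0.001 and -0.005 over all genes. The second of these has no firm sign, because it becomes 0.002 when libraries are scaled by their totals and 0.101 after quantile normalization.

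ND1 encodes a core membrane subunit of complex I near the ubiquinone site. It stood at 2799, 2774 and 3140 RPM at 2 mM glutamine and at 3219, 3419 and 3427 with the drug added. All 3 treated libraries lay above all 3 untreated ones (adjusted p = 0.000349, limma). At 40 mM it was 2617, 2976 and 2665 without and 3230, 3151 and 2788 with the drug, a difference of 0.15 ± 0.044 (adjusted p = 0.0093), with 1 treated library inside the untreated range. ND3, also a membrane subunit of complex I, read 398, 400.0 and 393 RPM at 2 mM and 426, 487 and 498 with the drug (difference 0.24 ± 0.046, adjusted p = 8.87e-05). Those groups do not overlap. At 40 mM, ND3 read 401, 340.1 and 373 without and 349, 379 and 344 with the drug, groups that overlap.

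CYTB carries the haems of complex III in the membrane. Its values were 1481, 1482 and 1699 RPM at 2 mM and 1726, 1826 and 1827 with the drug, with no overlap (difference 0.21 ± 0.046, adjusted p = 0.000601). At 40 mM they were 1337, 1569 and 1442 and 1624, 1576 and 1413, and the difference of 0.09 ± 0.046 did not pass (adjusted p = 0.168). ATP6, the proton channel subunit of complex V, went from 1858, 1909 and 2068 to 2029, 2108 and 2167 RPM at 2 mM, where the highest untreated library lies within the treated range (adjusted p = 0.0207). ND4 moved the other way, from 7171, 7073 and 7992 to 6410, 6621 and 6788 RPM (adjusted p = 0.0059), with every treated library below every untreated one. ND4L, whose model overlaps that of ND4, differed by 0.18 ± 0.121 at 2 mM and did not pass.

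ND6, the complex I subunit on the other strand, read 455, 474 and 446 RPM at 40 mM and 507, 519.8 and 460.2 with the drug. These ranges overlap, and the adjusted p was 0.0459. ND5, COX1 and ATP8 passed in none of the 4 comparisons. COX1, the catalytic subunit of complex IV, was 13180, 12830 and 14690 RPM at 2 mM and 12490, 12750 and 12990 with the drug, and 12050, 14240 and 12710 and 13560, 12950 and 11730 at 40 mM. ND5 lay between 1863 and 2272 RPM over all 12 libraries and ATP8 between 15.6 and 30.6.

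With 40 in place of 2 mM glutamine, ND3, COX3, CYTB, ND2, ATP6, ND1, COX2 and ND4L fell when the drug was present, and ND4 and ND2 fell without it. ND1, ND3, CYTB and ATP6 had risen with the drug at 2 mM, and both results rest on the same treated 2 mM libraries. The falls of ND4 with glutamine and with the drug likewise share the untreated 2 mM libraries. With the drug, 8 of 13 were lower and none higher at 40 mM (median -0.202), against 21.6% of all genes called, 8.62% higher and 13% lower. Without the drug, 2 of 13 were lower (median -0.08), against 17.5% of all genes called, 8.41% higher and 9.12% lower. The size with the drug depends on the scaling: the median is -0.147 with libraries scaled by their totals and -0.028 after quantile normalization. Whether the effect of glutamine on each gene differed with the drug was tested by the interaction, given further on.

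Of the 8, ND3 fell by 0.39 ± 0.046 with the drug (adjusted p = 1.07e-07) and kept its call in each alternative run. COX3, of complex IV, read 4492, 4650 and 4752 RPM at 2 mM and 4133, 4029 and 3702 at 40 mM, both with the drug, and fell by 0.23 ± 0.042 (adjusted p = 0.000137). CYTB, ND2 and ATP6 fell by 0.22 ± 0.046, 0.22 ± 0.041 and 0.20 ± 0.038. In each of these 5 genes the 40 mM libraries lie below all the 2 mM ones. The groups overlap in the others: ND1 (-0.14 ± 0.044), COX2 (-0.11 ± 0.040) and ND4L, which read 269.6, 402 and 445 RPM at 2 mM and 266, 356 and 221 at 40 mM. Over all genes tested, the 40 mM libraries lay wholly below the 2 mM ones in 20.5% in this comparison, and 37.4% had groups that do not overlap either way. Without the drug, ND4 fell by 0.21 ± 0.047 (adjusted p = 0.00158), from the values above to 6000, 7024 and 6240 RPM. ND2 fell by 0.12 ± 0.041 (adjusted p = 0.0436), with overlapping groups.

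These calls depend on how the spread between libraries is estimated. With robust moderation the calls for drug at 2 mM, drug at 40 mM, glutamine without drug and glutamine with drug become 1, 0, 0 and 3 of 13 in place of 5, 2, 2 and 8. With each gene's own spread they become 1, 0, 0 and 1. Leaving out 1 library also moves them: without replicate 2 of the 40 mM group, glutamine without drug calls 7 of 13 and the drug at 40 mM calls 5 of 13, and without replicate 3 of that group the drug calls 0.

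The share of each gene in the reads of the 13 does not depend on the scaling between libraries. It is given as a description, since 3 libraries against 3 cannot go below 0.10 in an exact permutation test, and a share shows unequal change, not which gene changed. ND1 made up 6.63, 6.63 and 6.71% of these reads at 2 mM, and 7.67, 7.71 and 7.79% with the drug. At 40 mM its share ran from 6.64 to 6.84% without and 7.49 to 7.63% with the drug, so the treated libraries are higher at both glutamine levels. CYTB had a mean of 3.56% at 2 mM and 4.13% with the drug, and 3.54 and 3.81% at 40 mM. ND6 also had no overlap at either level, although narrowly. Its share was at most 1.144% without and at least 1.145% with the drug at 2 mM, and 1.19 and 1.192% at 40 mM.

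ND4 was the 1 gene whose share was lower with the drug at both levels. Its means were 16.99 ± 0.0792% at 2 mM and 15.21 ± 0.108% with the drug (SD, n = 3), then 15.67 ± 0.133% and 15.26 ± 0.22% at 40 mM. COX1 had a lower share with the drug at 2 mM only, 29.35 ± 0.36 against 31.1 ± 0.377%, and a higher share at 40 mM than at 2 mM both without and with the drug. ATP6 moved in opposite directions, from 4.46 to 4.84% at 2 mM and from 4.77 to 4.53% at 40 mM, with no overlap in either. In all, 9 of 13 shares did not overlap for the drug at 2 mM (7 higher, 2 lower), 5 at 40 mM (3 higher, 2 lower), 3 for glutamine without drug (2 higher, 1 lower) and 7 with it (1 higher, 6 lower). The 13 shares add up to the whole, so these are not separate changes, and no like count over all genes was made.

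**Figure D2:**
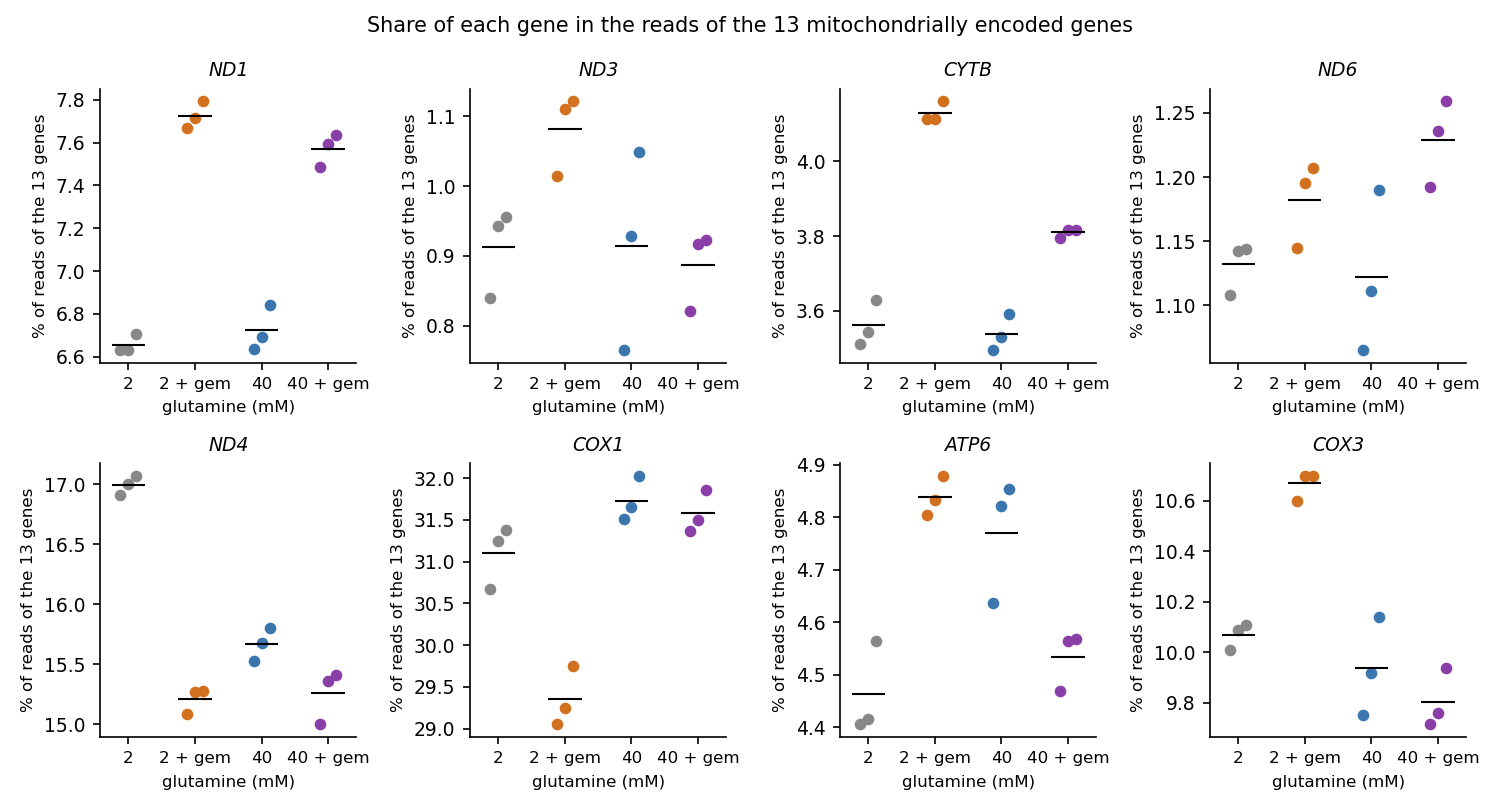
Share of 8 mitochondrial genes in the reads of all 13, in %, for the 4 groups (2 or 40 mM glutamine, without or with gemcitabine); each point is a library, the line is the group mean, and each panel has its own axis that does not start at 0. ND1 and CYTB are higher in every library with the drug, and ND4 is lower.

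Among the nuclear genes, gemcitabine called about as many at 2 mM as it did among all genes, with more of them lower than higher. At 2 mM, 8 of 76 were higher and 18 lower (median -0.02), which is 34.2% called against 34.6% of all genes, with 10.5% higher against 17.5% and 23.7% lower against 17.1%. At 40 mM 3 were higher and 26 lower (median -0.066), which is 38.2% called against 30.3%, with 3.95% higher against 14.1% and 34.2% lower against 16.2%. All 3 treated libraries lay above all 3 untreated ones in 8 nuclear genes and below them in 25 at 2 mM, against 23.2 and 22.8% of all genes (46.1% either way). At 40 mM this held for 3 and 26 genes, against 19.2 and 21.4% (40.6% either way). Of the 76, 17 fell at both levels, among them core subunits of complexes I, II, III and V: 9 of complex I, 2 of complex II, 2 of complex III, 1 of complex IV and 3 of complex V. These are 94.4% of those that fell at 2 mM and 65.4% of those at 40 mM, whereas over all genes 1310 fell at both, 60.0 and 63.3% of the 2 counts. The 2 drug comparisons share no library. Across all alternative runs, 13 of the 17 kept the call at 2 mM, 11 kept it at 40 mM and 9 kept both. No nuclear gene rose at both. The falls are small, between 0.07 and 0.24 on the log2 scale at 2 mM and between 0.10 and 0.26 at 40 mM; a log2 difference of -0.2 is a change of -12.9%.

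**Figure D3:**
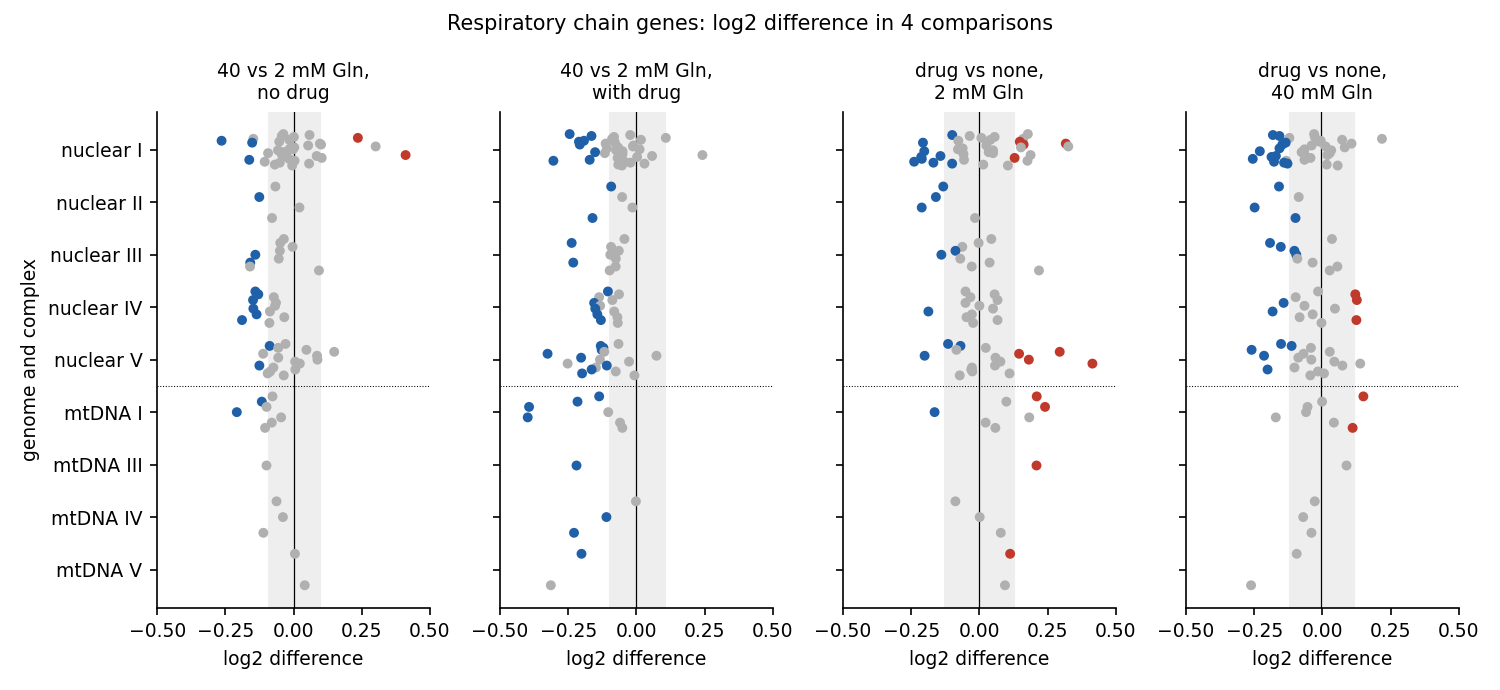
Log2 difference of each tested gene by genome and complex in 4 comparisons, with red points higher and blue points lower past the threshold, grey points not called, and the grey band running from the lower to the upper quartile of all genes tested. In the drug comparisons blue points gather in complexes I and II, and in the comparison of glutamine with drug in nuclear complex V and the mitochondrial genes.

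Complex I had 4 genes higher and 9 lower of 34 with the drug at 2 mM (median 0.02), and 0 higher and 12 lower at 40 mM (median -0.066). Genes of the catalytic core, the nuclear subunits that hold the flavin and iron-sulphur centres, were among those that fell. NDUFS7, which carries the last iron-sulphur centre, fell by 0.24 ± 0.048 and 0.18 ± 0.048, from 83.8, 87.4 and 79.3 to 70.1, 73.6 and 68.0 RPM at 2 mM. Models on the other strand lie across 55.1% of its exons.

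NDUFS1, the largest iron-sulphur subunit, read 200.4, 199.8 and 189 RPM at 2 mM and 178, 177 and 179 with the drug, then 202, 215 and 208 and 182, 187 and 186 at 40 mM. In both pairs every treated library is below every untreated one. It fell by 0.14 ± 0.033 at 2 mM and 0.17 ± 0.033 at 40 mM (adjusted p = 0.000982 and 0.000141). NDUFS8, another iron-sulphur subunit, fell by 0.17 ± 0.041 and 0.14 ± 0.041. NDUFV1, which binds NADH and the flavin, fell by 0.10 ± 0.033 and 0.13 ± 0.033. Its partner NDUFV2 passed in no comparison: it read 208, 194 and 199 RPM at 2 mM and 198, 208 and 201 with the drug, a difference of 0.01 ± 0.035. NDUFS3, another core subunit, read 53.9, 54.1 and 52.4 RPM and 57.1, 59.6 and 59.0 with the drug at 2 mM. That rise of 0.13 ± 0.051 was at the threshold (adjusted p = 0.0486) and lost its call when any 1 library of the comparison was left out.

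The accessory subunits split. NDUFA9, NDUFA10, NDUFB7 and NDUFS4 fell at both glutamine levels. NDUFS4, a subunit mutated in Leigh syndrome, had the largest fall of these at 40 mM, 0.26 ± 0.057 (adjusted p = 0.000729), from 40.8, 39.1 and 37.1 to 32.6, 33.4 and 31.6 RPM. NDUFB7 fell by 0.20 ± 0.049 and 0.23 ± 0.049, and NDUFA9 by 0.21 ± 0.040 and 0.13 ± 0.040. NDUFB1, NDUFB10 and NDUFA8 rose at 2 mM, by 0.32 ± 0.111, 0.16 ± 0.045 and 0.15 ± 0.054. NDUFB1, a small membrane subunit, was 24.4, 27.1 and 24.6 RPM at 2 mM and 25.4, 34.6 and 36.5 with the drug, so its first treated library lies within the untreated range, and its call was lost without replicate 2 or 3 of the treated or replicate 1 or 3 of the untreated group. NDUFB10 fell at 40 mM instead (-0.15 ± 0.045, adjusted p = 0.0129).

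Complex II, succinate dehydrogenase, fell in 3 of 4 genes at each glutamine level. Its 4 genes together took 0.0699 to 0.0705% of the reads at 2 mM and 0.0634 to 0.0663% with the drug, and 0.0679 to 0.0687% and 0.0620 to 0.0646% at 40 mM. SDHC, a membrane anchor, was at 158, 162 and 164 RPM at 2 mM and 135, 136 and 146 with the drug, then 162, 172 and 156 and 138, 136 and 138 at 40 mM. The differences were -0.21 ± 0.038 and -0.25 ± 0.038 (adjusted p = 3.57e-05 and 3.27e-06), with no overlap at either level. SDHA, the flavoprotein, was at 290.5, 290.4 and 278 RPM and 263, 256 and 264 at 2 mM, and it fell by 0.13 ± 0.031 and 0.16 ± 0.031. SDHB, the iron-sulphur subunit, fell by 0.16 ± 0.039 at 2 mM (adjusted p = 0.00149), and its difference of -0.09 ± 0.039 at 40 mM did not pass (adjusted p = 0.0904). SDHD, the other anchor, differed by -0.02 ± 0.038 at 2 mM and fell by 0.10 ± 0.038 at 40 mM (adjusted p = 0.0476). That last call was lost in 10 of 17 alternatives.

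Complex III had 2 of 9 genes lower at 2 mM and 4 of 9 at 40 mM, none higher. UQCRC1 and UQCRC2, its core proteins, fell at both levels. UQCRC2 read 152, 149 and 145 RPM at 2 mM and 132, 131 and 142 with the drug (difference -0.14 ± 0.036, adjusted p = 0.00273). UQCRC1 fell by 0.09 ± 0.034 and 0.10 ± 0.034. The Rieske iron-sulphur protein UQCRFS1 passed in neither (-0.07 ± 0.036 and -0.09 ± 0.036). UQCRB, a subunit at the ubiquinone site, differed by -0.06 ± 0.046 at 2 mM and fell by 0.15 ± 0.046 at 40 mM. None of the 4 calls at 40 mM was kept when libraries were scaled by their totals.

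Complex IV had 1 gene lower of 12 at 2 mM, and 3 higher and 2 lower at 40 mM, the 3 nuclear rises there. COX7A2L, a factor that joins complexes III and IV into supercomplexes, fell at both levels, from 91.1, 94.5 and 89.4 to 80.2, 77.5 and 83.5 RPM at 2 mM and from 88.1, 87.7 and 83.0 to 74.2, 75.5 and 78.0 at 40 mM. The falls were 0.19 ± 0.042 and 0.18 ± 0.042 (adjusted p = 0.000708 and 0.00106). COX8A, COX6A1 and COX5A, small structural subunits in their common isoforms, rose at 40 mM by 0.12 ± 0.037, 0.13 ± 0.041 and 0.12 ± 0.043. Each lost its call without replicate 2 of the 40 mM group. COX6B1, on the outer side of the complex, differed by -0.05 ± 0.045 at 2 mM and fell by 0.14 ± 0.045 at 40 mM. NDUFA4, once assigned to complex I and counted here with complex IV, differed by -0.02 ± 0.045 and -0.00 ± 0.045, neither past the threshold.

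Complex V had 4 genes higher and 3 lower of 17 at 2 mM, and 0 higher and 5 lower at 40 mM. ATP5F1A and ATP5F1B, the catalytic alpha and beta subunits, fell at both levels. ATP5F1A read 574, 578 and 583 RPM at 40 mM and 529.9, 516 and 516 with the drug (difference -0.15 ± 0.028, adjusted p = 6.6e-05), after -0.12 ± 0.028 at 2 mM. ATP5F1B fell by 0.07 ± 0.026 and 0.11 ± 0.026. ATP5F1D, the delta subunit of the stalk, fell by 0.26 ± 0.043 at 40 mM (adjusted p = 1.54e-05), where it read 130.1, 117 and 122 RPM without and 98.5, 102 and 106 with the drug. ATP5IF1, the protein inhibitor of the enzyme, rose at 2 mM from 60.1, 67.1 and 57.4 to 70.8, 76.1 and 80.0 RPM (difference 0.29 ± 0.064, adjusted p = 0.000491), with no overlap. At 40 mM its values were 78.6, 62.9 and 64.2 and 64.3, 73.2 and 71.5, which overlap. ATP5MD, a small subunit of the membrane part, rose by 0.18 ± 0.062 at 2 mM (adjusted p = 0.0228).

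ATP5MC1, ATP5MC2 and ATP5MC3 encode the same c subunit of the rotor ring with different targeting sequences. ATP5MC2 was lower with the drug by 0.20 ± 0.045 and 0.21 ± 0.045 and was not called for glutamine (0.09 ± 0.045 and 0.07 ± 0.045). ATP5MC1 read 67.5, 78.1 and 70.8, then 81.2, 80.7 and 77.3 RPM with the drug at 2 mM, and 65.8, 65.7 and 68.2, then 62.6, 59.4 and 68.5 at 40 mM. It rose with the drug at 2 mM by 0.15 ± 0.051 (adjusted p = 0.0253), with overlap, and with the drug present it fell with glutamine by 0.33 ± 0.051 (adjusted p = 1.47e-05), without overlap. ATP5MC3, the most abundant in RPM, fell with glutamine when the drug was present by 0.20 ± 0.036 (adjusted p = 7.4e-05) and passed in no drug comparison. Whether the 3 responses differ from each other was not tested.

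**Figure D4:**
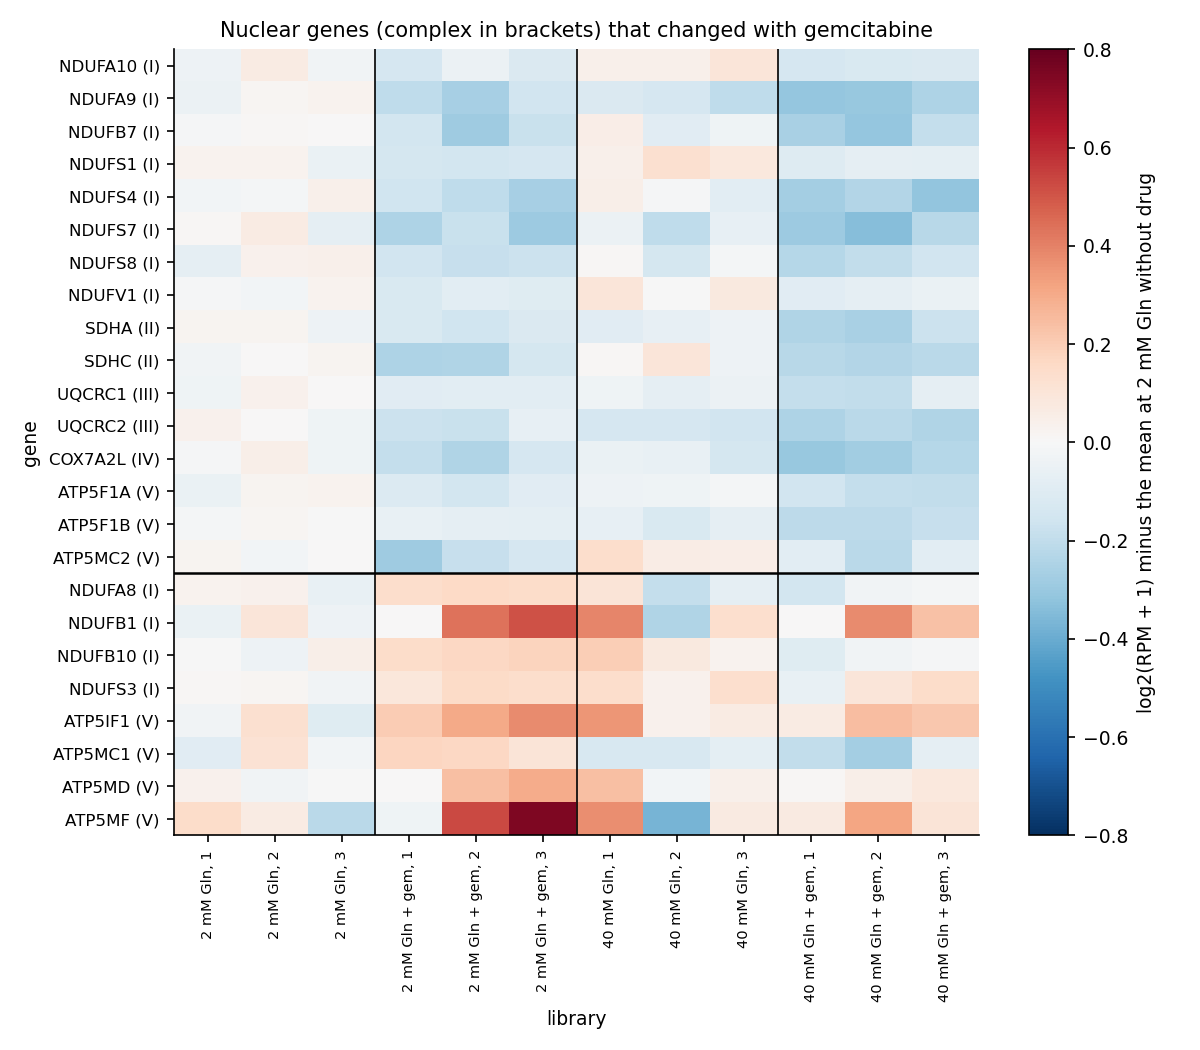
Log2(RPM + 1) of nuclear genes in each of 12 libraries minus the gene's mean at 2 mM glutamine without drug, with the complex in brackets. The genes above the line fell with gemcitabine at both glutamine levels, and the 8 below it rose at 2 mM, where NDUFB1, ATP5MD and ATP5MF are high in replicates 2 and 3 of the treated group and not in replicate 1.

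Transcript length moved with this split. The 17 genes lower at both levels have a median transcript length of 1415 bases, the 8 that rose at 2 mM one of 561, and all 76 one of 704.5. Short transcripts also varied by library: among the 25 nuclear genes of at most 600 bases, 23 were above their group mean in replicate 1 of the 40 mM group (median deviation 0.072) and 4 in replicate 2 (-0.09). Among the 19 genes of at least 1000 bases, the medians there were 0.016 and -0.021. When each library's dependence on expression, base composition and length was taken out, the 18 falls at 2 mM were kept and 3 of the 8 rises were lost (ATP5MC1, NDUFA8 and NDUFS3), with 8 calls gained. At 40 mM the 3 rises were kept and 4 of the 26 falls were lost (ATP5F1B, NDUFA11, UQCR11 and UQCRC1), with 1 call gained, so 2 of the 17 genes lost a call. ATP5MF, the f subunit of complex V and the largest rise among the nuclear calls at 2 mM (0.41 ± 0.135, adjusted p = 0.016), read 25.1, 23.7 and 19.3 RPM and 22.0, 33.0 and 38.5 with the drug, and its groups overlap. Of its exons, 22.4% overlap a read-through gene on the same strand.

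Glutamine alone lowered 14 of 76 nuclear genes and raised 2 (median -0.046 against 0.002 over all genes), and complex IV had the highest share of its genes lower. The share lower was 18.4% against 9.12% of all genes, and the share higher 2.63% against 8.41%. In complex IV, 6 of 12 fell and all 12 differences were negative (median -0.109). The 40 mM libraries lay wholly above the 2 mM ones in 5 nuclear genes and wholly below in 17, against 15.4 and 15.8% of all genes (31.1% either way). Complex I had 2 higher and 3 lower of 34, complex II 1 lower of 4, complex III 2 lower of 9 and complex V 2 lower of 17. With libraries scaled by their totals 4 of the complex IV genes and 12 of the 76 were called.

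COX8A, a small structural subunit, read 182, 198 and 192 RPM at 2 mM and 176, 157 and 169 at 40 mM (difference -0.19 ± 0.037, adjusted p = 0.000367). With the drug it read 199.7, 197 and 203 and 179.5, 184 and 184, again with no overlap (difference -0.13 ± 0.037, adjusted p = 0.00975). COX4I1, the regulatory subunit that binds ATP, fell by 0.14 ± 0.034 without and 0.10 ± 0.034 with the drug. COX7A2 fell by 0.15 ± 0.044 and 0.15 ± 0.044, and COX7B by 0.14 ± 0.047 and 0.14 ± 0.047. COX6A1 and COX5A fell without the drug by 0.15 ± 0.041 and 0.13 ± 0.043, and with it their differences of -0.09 ± 0.041 and -0.06 ± 0.043 did not pass. The 40 mM libraries without drug that give COX8A, COX6A1 and COX5A a fall with glutamine are the same that give them a rise with the drug, so the 2 results share their libraries.

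UQCRH, the hinge protein of complex III, gave a fall in both glutamine comparisons. Its values were 244, 259.8 and 245 RPM at 2 mM and 234, 214 and 223 at 40 mM, and with the drug 251, 257 and 260.5 and 217, 214 and 223. The falls were 0.16 ± 0.034 and 0.23 ± 0.034 (adjusted p = 0.00105 and 5.93e-06), each without overlap. The close relative UQCRHL, at 5.60 RPM on average, could share some of these reads. NDUFS5, an accessory subunit of complex I, fell by 0.16 ± 0.036 and 0.17 ± 0.036 (adjusted p = 0.00139 and 0.000612). UQCRH and NDUFS5 were the 2 of 9 genes lower in both glutamine comparisons that kept both calls in each alternative run. The others were ATP5F1B, ATP5MG, COX4I1, COX7A2, COX7B, COX8A and NDUFA7, and 657 of all genes were lower in both.

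The largest differences with glutamine alone fell on genes whose models overlap others. NDUFC2, an accessory subunit of complex I, read 5.98, 7.34 and 5.52 RPM at 2 mM and 8.79, 8.85 and 8.25 at 40 mM, a rise of 0.41 ± 0.115 (adjusted p = 0.011). Its exons overlap a read-through gene over 16.3% of their length, its mean level is 7.74 RPM, and its call was lost without replicate 3 of the 2 mM group. NDUFA13, also known as GRIM-19, rose by 0.24 ± 0.051 (adjusted p = 0.00121), with 26.5% of its exons shared. NDUFA7 fell by 0.26 ± 0.063, and 75.9% of its exons lie in another model on the same strand. Such overlap is not limited to these genes. Of the complex IV genes lower here, COX8A has 34.5% and COX6A1 30.6%, and COX4I1, COX5A, COX7A2 and COX7B have 0.0%. The sources used here do not state how reads shared between models were counted.

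With the drug present, 40 against 2 mM glutamine lowered genes in every complex: 25 of 76 nuclear genes fell and none rose (median -0.089 against -0.002 over all genes). That is 32.9% lower against 13% of all genes. The 40 mM libraries lay wholly above in 3 and wholly below in 34, against 17.0 and 20.5% of all genes. Complex V had 8 lower of 17, complex I 8 of 34, complex IV 5 of 12, complex II 2 of 4 and complex III 2 of 9. Beyond the c subunit genes, ATP5PB, the peripheral stalk subunit b, fell from 193, 186 and 199 RPM at 2 mM to 169, 171 and 175 at 40 mM (difference -0.16 ± 0.033, adjusted p = 0.000434). NDUFS6, a zinc-binding accessory subunit of complex I, fell by 0.30 ± 0.076 and NDUFA8 by 0.21 ± 0.054. NDUFA8, NDUFB10 and ATP5MC1 fell here and rose with the drug at 2 mM, results that share the treated 2 mM libraries. UQCR11 and NDUFA1, small subunits of complexes III and I, fell by 0.24 ± 0.061 and 0.24 ± 0.080, and these calls were lost with robust moderation. SDHD fell by 0.16 ± 0.038 (adjusted p = 0.00215) and SDHA by 0.09 ± 0.031.

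The scaling between libraries sets much of this count. Median-of-ratios scaling kept all 25 calls and added none. With libraries scaled by their totals, 3 nuclear genes were higher and 13 lower, none of them in complex IV. Over all genes total scaling turned the higher share of calls from 39.9 to 68.2%, and quantile normalization turned it to 50.1%. With each library's dependence on expression, base composition and length taken out, 11 of the 25 calls were kept, 13 were lost and the sign of ATP5F1D turned. For glutamine without drug, drug at 40 mM and the interaction, total scaling moved the higher share from 48 to 61.2%, from 46.6 to 62.9% and from 33.1 to 58.9%. Leaving out 1 library also lowered the 25 calls, to 14 without replicate 3 of the 2 mM group with drug and to 16 without replicate 1 of the 40 mM group with drug. ATP5MC1, ATP5MC3, ATP5PB, ATP5PF, NDUFB10, NDUFS5, SDHD and UQCRH kept their calls in each alternative run.

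Promoters of 4 of these genes are shown because they hold binding motifs of factors long tied to respiratory genes. Of the 76 tested nuclear genes, 63 had a promoter in the RefSeq table (GRCh38.p14), read here as the 250 bases before the start. The palindromic NRF1 motif, in capitals in SDHD and ATP5F1C below, was in 3 of 63 (4.76%), against 1.48% of 15842 promoters of protein-coding genes. The ETS motif CCGGAAG, bound by GABPA and its relatives, was in 17 of 63 (27.0%) on either strand, against 11.8%. The YY1, SP1 and CCAAT motifs were also searched and were in 3.17, 57.1 and 30.2%, against 1.63, 56.0 and 34.5%. The protein-coding promoters include those of genes not tested here. Capitals mark the NRF1 and ETS matches. CTTCCGG is the ETS motif on the other strand, and SDHD holds both motifs.
SDHD promoter, chr11:112086623-112086872, + strand: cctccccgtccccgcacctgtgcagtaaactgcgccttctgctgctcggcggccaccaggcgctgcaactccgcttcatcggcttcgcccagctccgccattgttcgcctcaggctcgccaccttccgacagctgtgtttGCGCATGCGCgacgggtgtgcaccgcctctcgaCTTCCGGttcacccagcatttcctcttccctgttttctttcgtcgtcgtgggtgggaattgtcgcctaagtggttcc
ATP5F1C promoter, chr10:7787927-7788176, + strand: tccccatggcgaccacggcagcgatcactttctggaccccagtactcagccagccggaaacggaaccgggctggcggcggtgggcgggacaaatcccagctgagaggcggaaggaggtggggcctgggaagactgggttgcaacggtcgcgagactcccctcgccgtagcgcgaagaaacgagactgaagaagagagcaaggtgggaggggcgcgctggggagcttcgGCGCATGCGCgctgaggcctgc
COX8A promoter, chr11:63974370-63974619, + strand: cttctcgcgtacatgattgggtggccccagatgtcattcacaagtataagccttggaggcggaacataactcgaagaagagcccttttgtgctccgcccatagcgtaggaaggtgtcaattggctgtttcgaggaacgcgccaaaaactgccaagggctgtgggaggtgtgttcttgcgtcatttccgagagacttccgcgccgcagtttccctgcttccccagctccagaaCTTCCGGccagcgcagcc
UQCRH promoter, chr1:46303448-46303697, + strand: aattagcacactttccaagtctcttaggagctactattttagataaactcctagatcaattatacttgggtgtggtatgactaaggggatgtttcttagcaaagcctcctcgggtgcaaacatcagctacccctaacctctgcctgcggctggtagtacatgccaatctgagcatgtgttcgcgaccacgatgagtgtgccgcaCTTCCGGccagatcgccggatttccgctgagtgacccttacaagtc
Of the genes lower with glutamine when the drug was present, 21 had a promoter in the table, and 7 (33.3%) held the ETS and 2 (9.52%) the NRF1 motif. Of those lower with the drug at both glutamine levels, 14 had one, and 2 (14.3%) held the ETS and 0 the NRF1 motif. Such a match is a string of letters, not a measured site, and no binding was measured here.

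The drug response differed between the glutamine levels in few of these genes. The interaction (the log2 response to the drug at 40 mM less the one at 2 mM) passed in 2 of 76 nuclear and 2 of 13 mitochondrial genes, all 4 negative, against 2.20% of all genes, 0.727% positive and 1.47% negative. NDUFB10, an accessory subunit of complex I, read 70.5, 68.8 and 73.0 RPM at 2 mM and 78.4, 79.3 and 80.1 with the drug, then 81.2, 74.8 and 72.0 at 40 mM and 65.9, 69.4 and 70.2 with the drug. It thus rose with the drug at 2 mM and fell at 40 mM, with no overlap in either, and the interaction was -0.31 ± 0.064 (adjusted p = 0.00615). For ND3 it was -0.29 ± 0.065 (adjusted p = 0.00937), for ATP6 -0.21 ± 0.054 (0.0343) and for ATP5PB -0.17 ± 0.047 (0.0467). Of 22 alternatives, NDUFB10 lost its call in 1, ND3 in 3, ATP6 in 13 and ATP5PB in 15. Over the tested genes of either genome, the median interaction was -0.037 for nuclear and -0.1 for mitochondrial genes, against -0.007 over all.

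**Figure D5:**
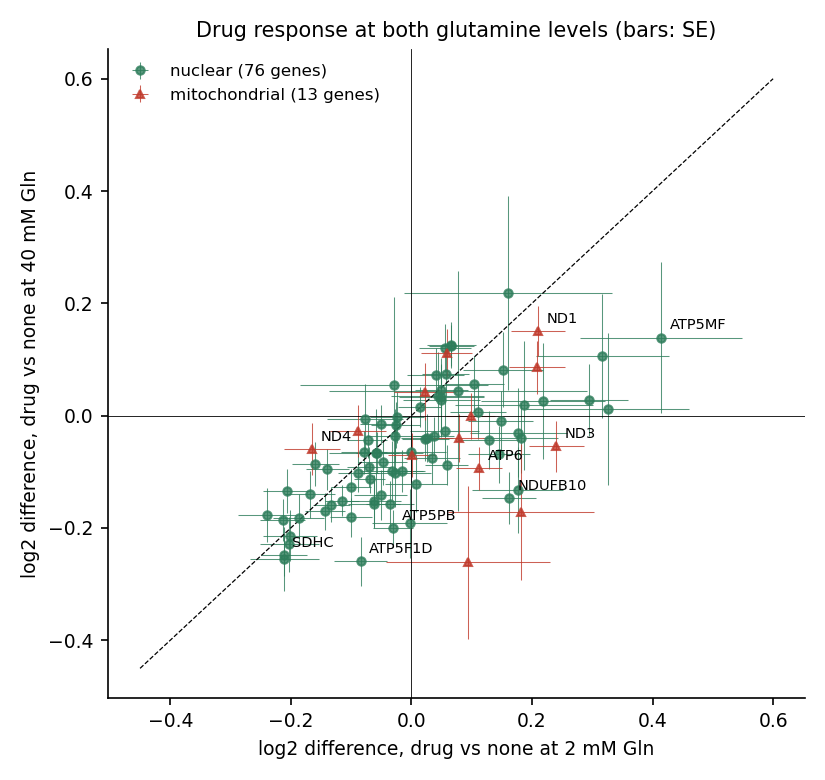
Log2 difference with gemcitabine at 2 mM (x) and at 40 mM glutamine (y) for 76 nuclear and 13 mitochondrial genes, with SE bars and the line of equal response dashed. SDHC falls at both levels near the line, and NDUFB10 and ND3 lie to the right of it, higher at 2 mM and below 0 at 40 mM.

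Genes that serve the chain without being subunits of the series above were followed as lists. Among 11 tested carriers and dehydrogenases that feed it, gemcitabine raised 3 and lowered 4 at either glutamine level, 63.6% called against 34.6% of all genes at 2 mM and 30.3% at 40 mM. ETFDH, which passes electrons from fatty acid oxidation to ubiquinone, was at 17.1, 15.7 and 15.3 RPM at 2 mM and 9.33, 11.0 and 11.8 with the drug, and at 19.6, 18.8 and 19.4 and 13.3, 12.2 and 12.4 at 40 mM. It fell by 0.55 ± 0.089 and 0.57 ± 0.089, more than any subunit. GPD2, the glycerol phosphate dehydrogenase that also feeds ubiquinone, rose by 0.35 ± 0.045 and 0.15 ± 0.045. Cytochrome c itself (CYCS) rose with the drug by 0.20 ± 0.033 and 0.14 ± 0.033 and fell with glutamine by 0.13 ± 0.033 and 0.20 ± 0.033. CYC1, the cytochrome c1 of complex III that the naming rule leaves out, fell in all 4 comparisons, by 0.10 ± 0.035 and 0.15 ± 0.035 with the drug and 0.10 ± 0.035 and 0.15 ± 0.035 with glutamine. With glutamine the list had 0 higher and 2 lower without the drug, and 2 higher and 4 lower with it (18.2 and 54.5% called, against 17.5 and 21.6% of all genes).

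Of 52 tested assembly factors, gemcitabine raised 5 and lowered 10 at 2 mM, and raised 3 and lowered 11 at 40 mM. With 28.8% called against 34.6% of all genes, and 26.9% against 30.3%, the list stood at or under the background, with 19.2 and 21.2% lower against 17.1 and 16.2%. ECSIT and NUBPL, factors for complex I, fell by 0.45 ± 0.073 and 0.29 ± 0.069 at 2 mM and by 0.39 ± 0.073 and 0.38 ± 0.069 at 40 mM. UQCC3, for complex III, rose with the drug at 2 mM by 0.40 ± 0.094 and fell with glutamine in its presence by 0.48 ± 0.094, and these 2 results share the treated 2 mM libraries. Glutamine moved 1 up and 1 down without the drug and 0 up and 7 down with it, 3.85 and 13.5% called against 17.5 and 21.6% of all genes.

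Among 32 tested genes for copying, processing and stabilising mitochondrial RNA and DNA, the drug raised 6 and lowered 3 at 2 mM, and raised 3 and lowered 4 at 40 mM. These shares of 28.1 and 21.9% called lie under the 34.6 and 30.3% of all genes. Glutamine raised 3 and lowered 3 without the drug, and raised 1 and lowered 9 with it, the latter 28.1% lower against 13% of all genes. TOP1MT, the mitochondrial topoisomerase, fell by 0.33 ± 0.052 and 0.34 ± 0.052 with the drug, and POLRMT, the mitochondrial RNA polymerase, by 0.14 ± 0.041 and 0.21 ± 0.041. LRPPRC and SLIRP form a complex that stabilises mitochondrial messenger RNA. LRPPRC fell with glutamine by 0.13 ± 0.029 and 0.17 ± 0.029, and SLIRP by 0.26 ± 0.057 and 0.34 ± 0.057. Of 10 tested nuclear regulators, gemcitabine raised 3 and lowered 1 at 2 mM and moved 1 each way at 40 mM, and none passed in limma for glutamine (ESRRA alone had an unadjusted p under 0.05, with the drug present). The drug shares of 40.0 and 20.0% called stand against the same 34.6 and 30.3%. GABPA, the DNA-binding subunit of the ETS factor named above, fell by 0.23 ± 0.048 and 0.18 ± 0.048, and the coactivator PPRC1 rose by 0.24 ± 0.046 and 0.13 ± 0.046.

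Of the 76 tested nuclear genes, 24 passed in none of the 4 pairwise comparisons, among them UQCRQ, COX5B, COX6C and COX7C. The like count over all genes was not made, so this number cannot be called high or low. In UQCRQ the difference with the drug at 2 mM was 0.22 ± 0.103 and in COX5B that with glutamine and drug was -0.14 ± 0.053, so a missed threshold does not show that their levels were equal.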

How the data were processed

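The deposited table holds log2(RPM + 1) values of 15090 genes in 12 libraries, made by the authors, per the file headers; reads were worked back from its steps, and all values came within 0.05 of a whole read. The sources used here do not state the aligner, the genome build, the strand setting or how libraries were scaled to each other. The members and gene lists were chosen with earlier results of these data known. Each gene was fitted with limma 3.58.1 (trended moderation, R 4.3.3) on the deposited log2 values over the 4 groups together. Genes entered the tests with 1 RPM or more in 3 or more of the 12 libraries (12789 genes, 2301 not tested, a median of 721 reads per tested gene). All p-values are two-sided and adjusted after Benjamini and Hochberg across the 12789 genes, and a gene was called below 0.05. Depth ran from 21723094 to 32811746 reads. Count models were not the main test because the deposited unit is log2; voom on the recovered reads was an alternative. Differences on the log2(RPM + 1) scale understate the change of low genes. Genes named are the 13 mitochondrial genes, SDHA to SDHD, the 6 called nuclear genes with the largest differences per direction and the 3 with the smallest adjusted p in each comparison, a set of catalytic and isoform genes, and up to 5 called genes per list; single genes beyond these were chosen after their values were seen. Alternatives changed the scaling, filter, pseudocount (0.25), moderation, libraries used and a block on the replicate number, and left out each library in turn. Taking out each library's dependence on expression, base composition and length, and using each gene's own spread, were chosen after seeing the data. Transcript lengths are medians over GENCODE v29 basic transcripts, and figures were drawn with matplotlib 3.10.9. Same-numbered libraries of different groups did not deviate together (18 pairs, r from -0.077 to 0.048), so the values showed no pairing by number. They cannot show whether same-numbered libraries were prepared together. One gene is counted in the totals but not reported here by name.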

Additional observations from a re-analysis of the deposited data

Results flagged for a closer look

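In 4 genes the response to gemcitabine differed between the glutamine levels, tested as an interaction (40 mM less 2 mM). The difference was -0.31 on the log2 scale for NDUFB10 (adjusted p = 0.00615, limma), -0.29 for ND3 (adjusted p = 0.00937), -0.21 for ATP6 (adjusted p = 0.0343) and -0.17 for ATP5PB (adjusted p = 0.0467). NDUFB10 and ND3 were higher with the drug at 2 mM in every treated library, and NDUFB10 was lower with it at 40 mM in every treated library. ATP5PB fell at 40 mM and did not pass at 2 mM. The interaction call was lost in 1 of 22 alternatives for NDUFB10, 3 for ND3, 13 for ATP6 and 15 for ATP5PB. Over all genes tested, 2.20% passed for the interaction.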

How the results depend on the processing

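Nuclear calls for the drug were the steadiest: 15 of 26 at 2 mM and 14 of 29 at 40 mM held in each alternative run, against 4 of 16 and 8 of 25 for glutamine without and with the drug, and 1 of 5, 0 of 2, 0 of 2 and 1 of 8 of the mitochondrial calls in that order. In the counts below, interaction means the difference between the drug responses, with 2 nuclear and 2 mitochondrial calls in the reported fit. With libraries scaled by their totals, glutamine without drug called 1 mitochondrial gene, glutamine with drug 16 nuclear genes, and the interaction 1 nuclear and 1 mitochondrial gene, and voom on the recovered reads gave the same counts of 1, 16, 1 and 1. With no filter on low values the interaction called 1 nuclear gene. With only the libraries of the comparison, glutamine without drug called 1 and the drug at 2 mM 8 mitochondrial genes. Quantile normalization, which by construction gives each rank the same value in every library, called 0, 2 and 6 mitochondrial genes for glutamine without drug, glutamine with drug and the drug at 40 mM, and 1 nuclear and 0 mitochondrial genes for the interaction. Robust moderation called 0, 3, 1, 0 and 0 mitochondrial genes for glutamine without drug, glutamine with drug, the drug at 2 mM, the drug at 40 mM and the interaction. With each library's dependence on expression, base composition and length taken out, glutamine without drug called 1 mitochondrial gene, glutamine with drug 14 nuclear and 5 mitochondrial genes, the drug at 40 mM 7 mitochondrial genes, and the interaction 1 and 1. With each gene's own spread, the 5 counts in the same order were 8, 12, 17, 18 and 0 nuclear and 0, 1, 1, 0 and 0 mitochondrial genes.

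Leaving out 1 library at a time gave 10 to 21 nuclear and 1 to 7 mitochondrial genes for glutamine without drug, 14 to 24 and 5 to 9 with drug, 18 to 25 and 4 to 7 for the drug at 2 mM, 21 to 30 and 0 to 5 at 40 mM, and 1 to 4 and 1 to 3 for the interaction. Without replicate 2 of the untreated 2 mM group, glutamine without drug called 10 nuclear and 4 mitochondrial genes. Without replicate 3 of that group, or replicate 3 of the untreated 40 mM group, it called 1 mitochondrial gene. Without replicate 2 or 3 of the treated 2 mM group or replicate 3 of the treated 40 mM group, glutamine with drug called 5 mitochondrial genes. Without replicate 1 of the treated 40 mM group the drug at 40 mM called 1.

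After quantile normalization the ND4 difference became 0 for glutamine without drug and for the drug at 2 mM. In 10 other cases the sign turned, and the cause was not tested beyond what each construction fixes. After quantile normalization, ND1 gave 0.081 for glutamine with drug, and ND2, COX3 and ATP6 gave 0.16, 0.22 and 0.10 for the drug at 40 mM. With that dependence taken out, ATP5F1D, COX1 and COX2 gave 0.001, 0.138 and 0.032 for glutamine with drug, and ND2, ND4 and COX1 gave 0.11, 0.10 and 0.16 for the drug at 40 mM. A replicate block changed no count except nuclear calls for the drug at 40 mM, 30 in place of 29. The values showed no pairing by replicate number.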
